A study of Mus musculus with 6 samples.

Results

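The 10 genes described here form a list for the synthesis of leukotrienes and prostaglandins from arachidonic acid. Beside the enzymes of synthesis they include a membrane partner (*Alox5ap*), a further lipoxygenase outside these routes (*Alox15*) and the enzyme that breaks prostaglandins down. They were taken by name from the deposited table of PB neutrophils, where 10 of 29097 listed genes carried these names, each on 1 row. Of the 10, 8 reached the mean FPKM (fragment counts scaled by gene length and library total) of at least 1 that was required for a test, and *Ltc4s* and *Ptges* did not. The libraries came from wild-type male C57BL/6 mice, 8 weeks old, in 2 groups of 3 libraries. In the LIP group (labelled Lig), silk ligatures had been tied around the second molars for 14 d to induce periodontitis, and the Ctrl mice were left unligated for the same 14 d. Neutrophils were sorted from blood as CD45+CD11b+Ly6G+ cells after red cell lysis, the cells of 5 mice were pooled for each library, and the libraries were prepared by Smart-seq2, a protocol for small amounts of RNA in which full-length cDNA is amplified by PCR. The comparison asks how the neutrophil transcriptome differs between mice with and without periodontitis.

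Arachidonic acid is cut from membrane phospholipids by cytosolic phospholipase A2 (*Pla2g4a*) and then enters one of several routes. In the leukotriene route, the lipoxygenase encoded by *Alox5*, helped by its membrane partner FLAP (*Alox5ap*), makes leukotriene A4, which *Lta4h* turns into leukotriene B4, a strong neutrophil attractant, and *Ltc4s* turns into the cysteinyl leukotriene C4. In the prostaglandin route, the cyclooxygenases *Ptgs1* (constitutive in many cells, platelets among them) and *Ptgs2* (inducible) make prostaglandin H2, *Ptges* turns it into prostaglandin E2, and *Hpgd* oxidizes prostaglandins to inactive forms. Neutrophils are known as a main blood source of leukotriene B4.

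In PB neutrophils of LIP mice, 6 of the 8 genes tested rose and the other 2, *Lta4h* and *Alox15*, did not pass the test (edgeR's quasi-likelihood test on counts, Benjamini-Hochberg adjusted p under 0.05 over 10440 genes). As background, 26.5% of all genes tested were called higher and 27.2% lower in this comparison, 53.6% in either direction. The median log2 fold change of the 8 members was 1.13, beside -0.09 over all genes tested. The largest changes were those of *Ptgs2* (log2 fold change 2.01), *Alox5* (1.89) and *Alox5ap* (1.80). With TMM factors, no member was called lower by edgeR at an adjusted or an unadjusted p under 0.05. DESeq2 called none lower either, whereas limma on log2(FPKM + 1), which used no TMM factors, called 1 member, *Lta4h*, lower. In normalized CPM (read counts scaled to a common library total, with TMM factors), the 3 LIP libraries lay wholly above the 3 Ctrl libraries for the 6 called members and for 30.3% of all genes tested. They lay wholly below for 0 members and for 33.1% of all genes, so that 63.4% of all genes had groups without overlap. With library totals in place of TMM factors, 5 members were higher and 1 lower, against 18.4% and 39.7% of all genes (58.1% in either direction). With libraries scaled on 21 mature neutrophil genes, 0 were higher and 5 lower, against 0.642% and 87.9% of all genes (88.6% in either direction). The median of all genes under this scaling was -1.88.

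**Figure D1:**
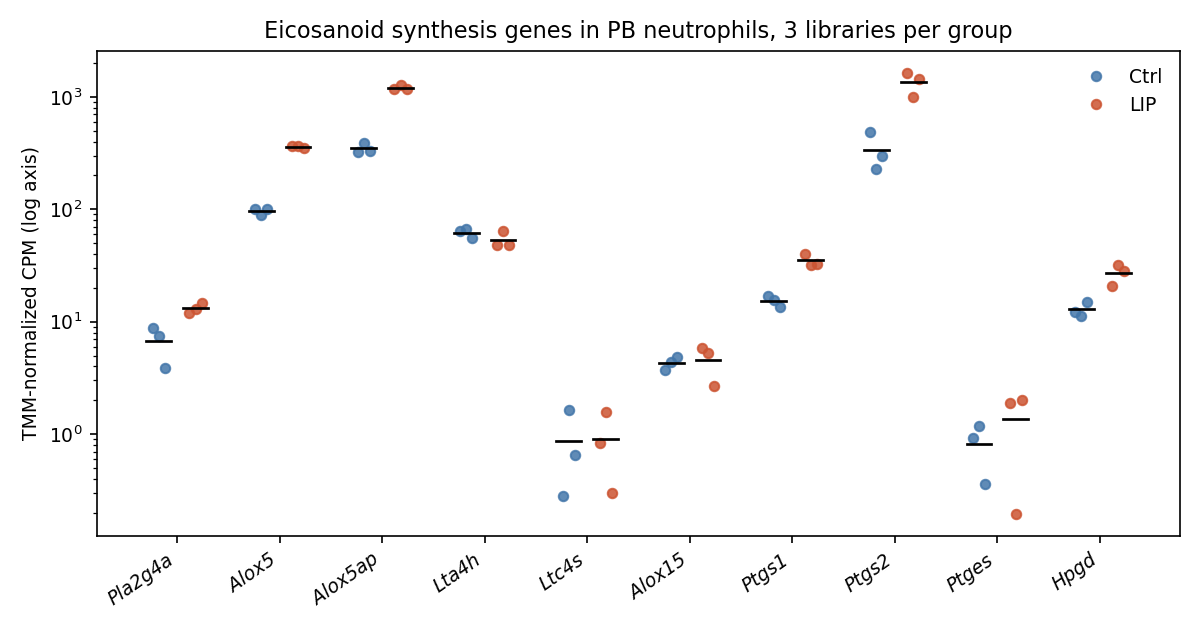
TMM-normalized CPM (read counts scaled to a common library total, log axis) of the 10 genes in each of the 3 Ctrl (blue) and 3 LIP (red) libraries, with black bars at the group means. The LIP points lie above all Ctrl points for Pla2g4a, Alox5, Alox5ap, Ptgs1, Ptgs2 and Hpgd, and the groups overlap for Lta4h, Ltc4s, Alox15 and Ptges.

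The sorted cells carried neutrophil transcripts and also those of other blood cells, in proportions that were unlike in Ctrl and LIP. Of the genes for the sorting markers, *Itgam* (CD11b) and *Ly6g* were looked up and were present in every library, *Ly6g* at 18.2 to 19.5 FPKM in Ctrl and 37.8 to 48.3 in LIP. The 21 mature neutrophil genes took 2.26 to 2.48% of the counts in Ctrl and 6.80 to 7.18% in LIP. All 21 were called higher (median of 1.898 on the log2 scale), against 26.5% of all genes tested. Erythroid genes took 14.7 to 15.1% and 1.56 to 1.62%, and B cell genes 2.06 to 2.21% and 0.337 to 0.345%. In bulk samples, fewer cells of a type and less RNA per cell cannot be told apart. Total counts per library lay between 52186555 and 57262379.

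Measured per gene length, *Alox5ap* was the most abundant of the 10 genes in both groups, from 252 ± 21.1 to 707 ± 33.4 FPKM between Ctrl and LIP (SD, n = 3 each), and it moved from rank 183 to rank 72 among the 29097 genes listed. *Ptgs2* came next, from 76.5 ± 32.3 to 247 ± 59.1 FPKM, and then *Alox5*, from 24.3 ± 2.13 to 73.0 ± 1.71 FPKM. The ranges of these 3 genes did not overlap each other within a group. In Ctrl they were followed by *Lta4h*, *Hpgd*, *Ptgs1* and *Alox15*, each above the next in all 3 libraries and without overlap. In LIP the order below these 3 was another. *Hpgd* (13.3 ± 2.82 FPKM, SD, n = 3) came next, and *Ptgs1* (7.51 ± 0.906) and *Lta4h* (7.28 ± 1.27) followed with overlapping ranges. *Pla2g4a*, *Ltc4s* and *Ptges* stood lowest in Ctrl, in that order by their means but with overlapping ranges, and *Pla2g4a* lay above *Ltc4s* in only 1 of the 3 libraries. In LIP *Pla2g4a* (1.71 ± 0.191 FPKM) came after *Lta4h*, followed by *Alox15* (1.56 ± 0.569), *Ltc4s* and *Ptges*, and the ranges of these 4 overlapped from one to the next.

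The sequence before the gene start is shown for the most changed gene of each route and for *Lta4h*, the abundant leukotriene enzyme that did not rise. The 250 bases upstream of the start were taken from RefSeq on GRCm38.p6, whose promoter table held 8 of the 10 members, and are written in the direction of transcription.
Alox5: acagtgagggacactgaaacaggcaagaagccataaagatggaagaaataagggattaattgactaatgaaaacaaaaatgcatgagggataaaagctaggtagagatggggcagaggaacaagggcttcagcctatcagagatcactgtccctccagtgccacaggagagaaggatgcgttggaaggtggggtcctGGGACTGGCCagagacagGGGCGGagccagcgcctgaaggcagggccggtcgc
Lta4h: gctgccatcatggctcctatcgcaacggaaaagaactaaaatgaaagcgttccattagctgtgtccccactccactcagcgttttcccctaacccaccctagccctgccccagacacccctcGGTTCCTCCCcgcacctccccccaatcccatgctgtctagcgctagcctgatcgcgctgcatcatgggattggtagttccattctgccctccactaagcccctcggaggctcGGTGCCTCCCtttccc
Ptgs2: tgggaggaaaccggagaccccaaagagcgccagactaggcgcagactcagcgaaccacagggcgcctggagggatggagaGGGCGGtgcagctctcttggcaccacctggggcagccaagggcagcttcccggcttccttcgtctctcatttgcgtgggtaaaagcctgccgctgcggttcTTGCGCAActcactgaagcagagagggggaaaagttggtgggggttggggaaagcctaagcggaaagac
These are chr6:116461179-116461428 on the minus strand for *Alox5*, chr10:93453146-93453395 on the plus strand for *Lta4h* and chr1:150099781-150100030 on the plus strand for *Ptgs2*. The windows of *Alox5* and *Lta4h* touch no exon of the GENCODE annotation, and that of *Ptgs2* overlaps exons of the antisense gene *Ptgs2os*. Capitals mark matches, on either strand, to any of 8 motifs searched: C/EBP (TTGCNNAA), PU.1 (GAGGAAG), GC box (GGGCGG), AP-1 (TGANTCA), CRE (TGACGTCA), NF-kB (GGGA and CC with 4 bases between them), TATA box (TATAAA) and E-box (CACGTG). In the *Ptgs2* window the match at position -69 from the start, TTGCGCAA, has the C/EBP letters, which 9.56% of 32851 promoter windows of the same length hold. A GC box lies at position -170 there, and 32.7% of all windows hold one. *Alox5* has an NF-kB match at position -53, GGGACTGGCC, and a GC box at position -35, and *Lta4h* has NF-kB matches on the opposite strand at positions -128 and -16. NF-kB letters were found in 17.6% of all windows. These matches describe letters only, and no binding was measured here.

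In the leukotriene route, the genes for the first step rose together and the gene for the next step did not. Gene positions are those of the deposited table, on GRCm38. *Alox5* (ENSMUSG00000025701, chromosome 6 from 116410077 to 116461178) had TMM-normalized CPM of 101, 88.6 and 101 in Ctrl and 363, 367 and 349.9 in LIP. The 3 LIP libraries differed little from each other and lay far above the Ctrl libraries. This is a 3.71-fold difference, or 1.89 as a log2 fold change (standard error 0.104, 95% interval 1.66 to 2.12, adjusted p = 3.39e-07 from edgeR). *Alox5ap* (ENSMUSG00000060063, chromosome 5 from 149264767 to 149288153), whose product hands arachidonic acid to the lipoxygenase, had CPM values of 323, 386 and 332 in Ctrl and 1183, 1267 and 1166 in LIP. The groups were again far apart, and the log2 fold change of 1.80 (standard error 0.0967, 95% interval 1.58 to 2.01) passed the test (adjusted p = 3.16e-07 from edgeR). Over 5117 bases the gene overlaps the antisense gene *Gm19719*, whose own CPM reached 0.199, 1.09 and 0.326 in Ctrl and 2.79, 4.37 and 5.04 in LIP, far below those of *Alox5ap*.

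*Lta4h* (ENSMUSG00000015889, chromosome 10 from 93453411 to 93484874), the hydrolase that makes leukotriene B4, had CPM values of 63.8, 67.1 and 55.0 in Ctrl and 47.7, 63.9 and 48.5 in LIP. The second LIP library lay within the Ctrl range and the others below it. The log2 fold change of -0.22 (standard error 0.157, 95% interval -0.56 to 0.13) did not pass the test (adjusted p = 0.265 from edgeR), and the interval excludes a rise of the size seen for *Alox5*. The call depended on the scaling. With library totals the value was -0.54 and passed as lower (adjusted p = 0.014 from edgeR), and in limma on log2(FPKM + 1) it was -0.48 (adjusted p = 0.0296).

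*Ltc4s* (ENSMUSG00000020377, chromosome 11 from 50236461 to 50238616), the synthase of cysteinyl leukotrienes known from mast cells, basophils and eosinophils, was barely present, with 17, 99 and 38 reads in Ctrl and 42, 81 and 14 in LIP. The groups overlapped widely, and in a fit without the filter on low genes the log2 fold change was 0.10 with a standard error of 1.01 (adjusted p = 0.953 from edgeR). Its value is uncertain beside that error, since it overlaps the antisense gene *Gm26542* over 1664 bases, which had 16 to 66 reads per library, and without strand the reads of the 2 genes cannot be told apart.

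Because ratios between genes of one library do not depend on how libraries are scaled, members were also compared with each other in FPKM. The ratio of *Alox5ap* to *Alox5* was 9.26, 12.6 and 9.49 in Ctrl and 9.43, 9.998 and 9.63 in LIP. All LIP values lay within the Ctrl range, and the means (± SD, n = 3 each) were 10.4 ± 1.87 for Ctrl and 9.69 ± 0.290 for LIP. On log2 ratios the difference of -0.10 had p = 0.9 by a two-sided exact permutation test, and without the second Ctrl library it was 0.05. *Lta4h* relative to *Alox5* was 0.425, 0.510 and 0.366 in Ctrl and 0.0883, 0.117 and 0.0930 in LIP. Each LIP library lay below each Ctrl library, and the mean log2 ratio differed by -2.12 (p = 0.1 by the same exact permutation test, which cannot go lower with 3 libraries a group, and 0.15 after Benjamini-Hochberg adjustment over 3 ratios). For *Ptgs2* to *Ptgs1* the ratio took values of 24.7, 12.3 and 18.6 in Ctrl and 34.6, 26.3 and 37.5 in LIP. The LIP libraries lay above the Ctrl libraries by 0.86 in the mean log2 ratio (exact permutation p = 0.1, adjusted 0.15), although the highest Ctrl and the lowest LIP value were close. The B cell, T cell and erythroid markers, which fell in LIP, moved in the same direction as the *Lta4h* to *Alox5* ratio, and their part in it was not tested.

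**Figure D2:**
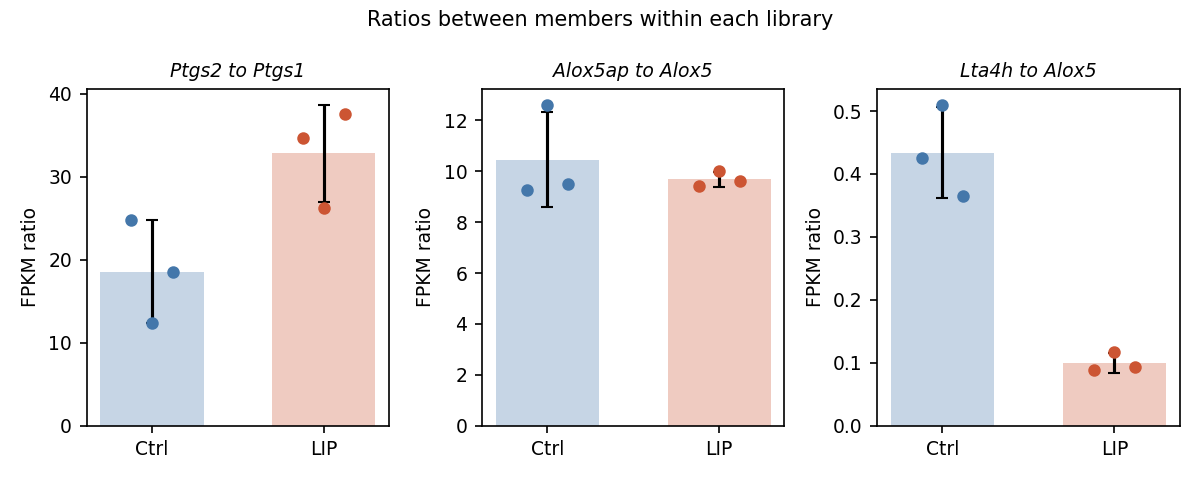
FPKM ratios within each library (points), with bars at the group mean and SD (n = 3), for 3 pairs of members. The ratio of Lta4h to Alox5 is near 0.433 in Ctrl and near 0.0995 in LIP without overlap, that of Alox5ap to Alox5 overlaps between the groups, and that of Ptgs2 to Ptgs1 is higher in LIP.

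In the prostaglandin route, both cyclooxygenases and the degrading enzyme rose. *Ptgs2* (ENSMUSG00000032487, chromosome 1 from 150100031 to 150108227), the inducible cyclooxygenase, had CPM values of 491, 226 and 297 in Ctrl and 1635, 994 and 1450.2 in LIP. Its libraries spread widely, the first Ctrl library above the other two and the second LIP library below the other two, but the groups did not overlap. The log2 fold change reached 2.01 (standard error 0.265, 95% interval 1.42 to 2.59, adjusted p = 0.000115 from edgeR). *Ptgs1* (ENSMUSG00000047250, chromosome 2 from 36230426 to 36252272), the other cyclooxygenase, had CPM values of 16.9, 15.6 and 13.6 in Ctrl and 40.1, 32.2 and 32.9 in LIP. The groups were apart, by 1.19 on the log2 scale (standard error 0.191, 95% interval 0.77 to 1.61, adjusted p = 0.000441 from edgeR). Platelets are a known source of *Ptgs1*, and platelet markers moved with it: 12 of 12 were called higher (median log2 fold change 1.24), the 12 took 0.133 to 0.154% of the counts in Ctrl and 0.262 to 0.318% in LIP, and the most abundant, *Ppbp* and *Pf4*, were at 434 and 302 FPKM in Ctrl. Over all genes tested, 26.5% were called higher. The part of platelet RNA in the rise of *Ptgs1* was not tested.

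*Hpgd* (ENSMUSG00000031613, chromosome 8 from 56294585 to 56321043), the dehydrogenase that starts prostaglandin breakdown, had CPM values of 12.2, 11.3 and 15.1 in Ctrl and 20.9, 31.9 and 28.0 in LIP. The lowest LIP value exceeded the highest Ctrl value, and the log2 fold change of 1.07 (standard error 0.231, 95% interval 0.56 to 1.58) passed the test (adjusted p = 0.00293 from edgeR). The terminal synthase *Ptges* (ENSMUSG00000050737, chromosome 2 from 30889471 to 30903297) was near the floor of detection, with 56, 71 and 21 reads in Ctrl and 96, 10 and 95 in LIP. The LIP libraries held both the highest and the lowest value. In the fit without the filter its log2 fold change was 0.76 with a standard error of 0.990 (adjusted p = 0.629 from edgeR).

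*Pla2g4a* (ENSMUSG00000056220, chromosome 1 from 149829618 to 149961290), which releases arachidonic acid for both routes, had CPM values of 8.87, 7.53 and 3.89 in Ctrl and 11.9, 12.9 and 14.7 in LIP. The LIP libraries lay above the Ctrl libraries, of which the third was lowest. The log2 fold change of 0.96 (standard error 0.334, 95% interval 0.22 to 1.70) passed the test (adjusted p = 0.0323 from edgeR), and this was the least secure of the 6 calls. It was lost in 4 of 6 fits that left out 1 library, namely without the second Ctrl library (1.07, adjusted p = 0.0522), the third Ctrl library (0.68, adjusted p = 0.098), the second LIP library (0.97, adjusted p = 0.0643) and the third LIP library (0.88, adjusted p = 0.0854). It was also lost with library totals (adjusted p = 0.127 from edgeR). The other 5 called members passed in all 6 of these fits. *Alox15* (ENSMUSG00000018924, chromosome 11 from 70344152 to 70352031), a lipoxygenase known from eosinophils and macrophages, had CPM values of 3.69, 4.37 and 4.83 in Ctrl and 5.89, 5.23 and 2.69 in LIP. The third LIP library was lowest and the first highest of the 6, and the log2 fold change of 0.10 (standard error 0.388, 95% interval -0.76 to 0.96) did not pass (adjusted p = 0.841 from edgeR). Its sign was negative with library totals (-0.22). Of the eosinophil markers, 7 were in the table and 4 were tested. Of these 4, 2 were called higher and 1 lower, against 26.5% and 27.2% of all genes tested. The summed level of the eosinophil markers was 38.3 to 46.4 CPM in Ctrl and 59.3 to 76.3 CPM in LIP. The granule gene *Prg2* was at 0.173 FPKM in Ctrl and 0.179 in LIP, while *Siglecf* rose by 1.44 and *Ear2*, one of a family of near-identical genes, by 0.81 on the log2 scale. The receptor gene *Il5ra* changed by -1.82 and was called lower (adjusted p = 0.0019 from edgeR), the largest change among the 4 markers tested. The part of eosinophil RNA in the level of *Alox15* was not tested.

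The members were then compared with the mature neutrophil genes themselves, by scaling the libraries on those 21 genes. These were *S100a8*, *S100a9*, *Csf3r*, *Cxcr2*, *Mmp8*, *Mmp9*, *Ly6g*, *Retnlg*, *Itgam*, *Ltf*, *Lcn2*, *Ngp*, *Camp*, *Il1b*, *Clec4d*, *Trem1*, *Hdc*, *Mxd1*, *Stfa2l1*, *Wfdc17* and *Fpr1*. Under this scaling 0.642% of all genes tested were called higher and 87.9% lower. A value near 0 means that a gene moved with the mean of the 21 genes, which did not all move alike. Their log2 fold changes ran from 0.39 to 2.51 under TMM, and under their own scaling 8 of them were called higher and 4 lower. A rise of these genes within neutrophils and a larger share of neutrophil RNA cannot be told apart here. *Alox5ap* (0.01, 95% interval -0.19 to 0.20), *Alox5* (0.10, -0.14 to 0.34) and *Ptgs2* (0.21, -0.41 to 0.84) stayed near 0, and none of these 3 passed the test (adjusted p = 0.936, 0.379 and 0.48 from edgeR). *Ptgs1* (-0.60), *Hpgd* (-0.72) and *Pla2g4a* (-0.83) were called lower, at adjusted p = 0.021, 0.0158 and 0.0473 from edgeR. Their rise was smaller than the mean rise of the 21 genes on the log scale. Of the 21, *Ltf* (0.91), *Ngp* (0.81) and *Camp* (0.39) rose less still under TMM. *Lta4h* (-2.01, adjusted p = 1.33e-06) and *Alox15* (-1.69, adjusted p = 0.00217) stood close to the median of all genes, -1.88.

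**Figure D3:**
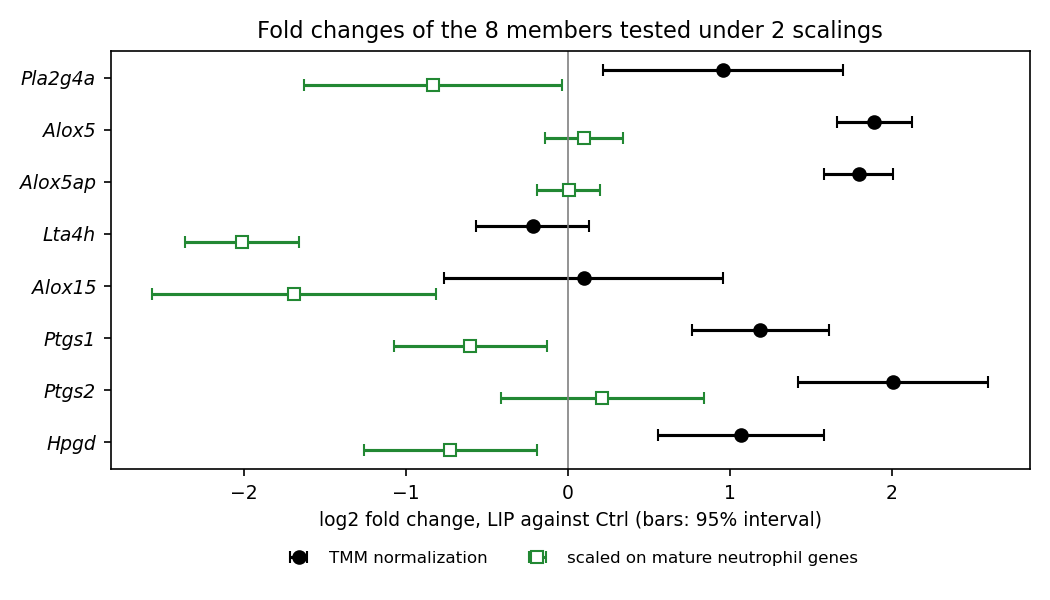
Log2 fold changes (LIP against Ctrl) of the 8 genes tested with 95% intervals, from edgeR with TMM normalization (filled circles) and with libraries scaled on 21 mature neutrophil genes (open squares). Alox5, Alox5ap and Ptgs2 lie between 1.80 and 2.01 under TMM and near 0 under the neutrophil scaling, whereas Lta4h moves from -0.22 to -2.01.

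Beside the marker lists, the members spread over several patterns. The median log2 fold changes were 1.898 for mature neutrophil, 1.24 for platelet, 0.94 for monocyte, 0.74 for eosinophil, 0.59 for basophil and mast cell and 0.44 for NK cell markers, and -2.47, -2.50 and -2.96 for B cell, T cell and erythroid markers. Over all genes tested, 26.5% were called higher and 27.2% lower. The B cell (13 of 13), T cell (12 of 12) and erythroid (8 of 8) markers were called lower throughout. Called higher were 4 of 8 NK cell markers and 1 of 5 basophil and mast cell markers, *Gata2* (0.94). Monocytes express several of the members as well, and 9 of 13 monocyte markers were called higher and 2 lower. Their summed level was 1269.6 to 1352 CPM in Ctrl and 1699.7 to 1819 CPM in LIP, with *Ly6c2* changing by 0.79 and *Ms4a4c* by -0.22 (not past the test). The part of monocyte RNA in the members' values was not tested.

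**Figure D4:**
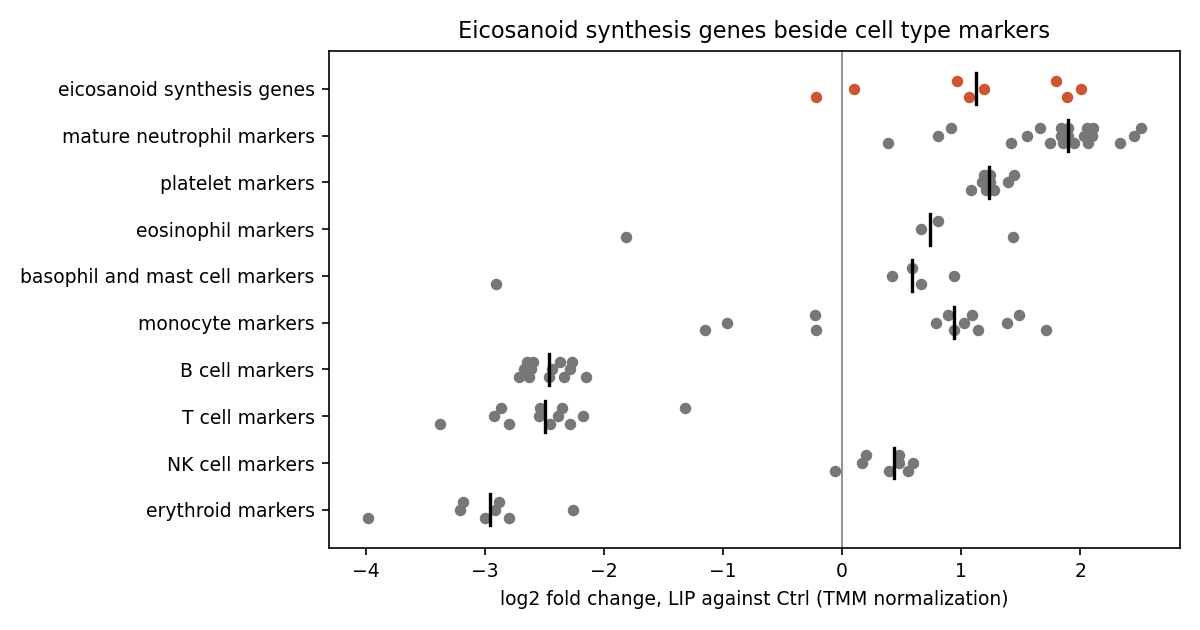
Log2 fold changes (LIP against Ctrl, edgeR with TMM) of the 8 eicosanoid synthesis genes tested (red) and of the tested markers of 9 cell types (grey), with a black bar at each median. The eicosanoid genes reach from -0.22 to 2.01, between the medians of B cell markers (-2.47) and the upper neutrophil markers.

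The genes with the profile most like that of the 2 most abundant members were named by the smallest distance between centred log2 CPM values over the 6 libraries. For *Alox5ap* these were *Sirpb1b*, *Anxa2* and *Casp4*, at distances of 0.0848, 0.104 and 0.106, and *Alox5* was at 0.369. *Sirpb1b* belongs to a family of near-identical genes, so its own value is uncertain. For *Ptgs2* they were *Aatk*, *Fgl2* and *Lilr4b*, at 0.346, 0.411 and 0.482, which are larger distances, and *Alox5ap* was at 1.19. These distances are descriptions over 6 libraries in 2 groups, with no test.

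Around the 10 members, a list of 80 further gene names of the eicosanoid pathway was examined, of which 70 were in the table and 42 were tested. Of these 42, 20 rose and 7 fell, with a median log2 fold change of 0.63, against 26.5% higher and 27.2% lower over all genes. With library totals 18 were higher and 9 lower, against 18.4% and 39.7% of all genes. With the neutrophil scaling 1 was higher, *Cbr3* (1.91, adjusted p = 0.00307 from edgeR), and 31 lower, against 0.642% and 87.9% of all genes. *Cbr3* had 0.472 FPKM in Ctrl and reached the required mean of 1 only through LIP (4.99), a selection that favours a rise. Of the genes called lower, *Faah* (0.577 FPKM) and *Tbxa2r* (0.883) stood below 1 in LIP. Among genes of arachidonate release and reacylation, 5 of 13 rose and 2 fell. *Pla2g7*, which hydrolyses platelet-activating factor and is the most abundant of them, went from 404 ± 21.9 to 1409.8 ± 114 CPM (SD, n = 3 each; log2 fold change 1.80, adjusted p = 2.48e-07 from edgeR), and *Lpcat2*, which makes platelet-activating factor, rose by 1.68 on the log2 scale. *Lpcat1* changed by -1.75 and *Faah*, which breaks down anandamide, by -1.42, both called lower.

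Among other lipoxygenases and the lipoxygenase partner, both genes tested rose, against 26.5% called higher over all genes. *Cotl1*, an actin-binding protein that also binds the *Alox5* product, went from 277 ± 33.4 to 563 ± 70.6 CPM (log2 fold change 1.02), and *Alox12*, the platelet lipoxygenase, from 121 ± 8.74 to 253 ± 49.0 CPM (log2 fold change 1.07; SD, n = 3 each). *Alox12* rose by slightly less than any of the platelet markers, which ran from 1.08 to 1.44 with a median of 1.24. The part of platelet RNA in the rise of *Alox12* was not tested. With the neutrophil scaling both genes were called lower, as were 87.9% of all genes, *Cotl1* at -0.77 and *Alox12* at -0.72. Among genes that convert or inactivate leukotrienes, 5 of 10 rose, against the same 26.5% over all genes, and the other 5 did not pass. *Cyp4f18*, which oxidizes leukotriene B4 in mouse neutrophils, was the most abundant and went from 542 ± 32.2 to 1187 ± 98.4 CPM (SD, n = 3 each; log2 fold change 1.13, adjusted p = 3.79e-06 from edgeR). *Ggt5*, which turns leukotriene C4 into D4, rose most, by 2.12, and the microsomal glutathione transferase *Mgst1* by 1.67. With the neutrophil scaling *Ggt5* was at 0.33 and *Mgst1* at -0.12, and neither passed (adjusted p = 0.0741 and 0.377 from edgeR). *Cyp4f18* was at -0.66 there and was called lower (adjusted p = 3.12e-05 from edgeR), as were 87.9% of all genes.

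Among prostanoid synthases and reductases, 2 of 7 rose and 3 fell, against 26.5% higher and 27.2% lower over all genes. *Cbr3*, a carbonyl reductase, rose from 0.579 ± 0.251 to 7.53 ± 1.61 CPM (SD, n = 3 each; log2 fold change 3.70, adjusted p = 8.66e-05 from edgeR). It was near the floor in Ctrl, with 39, 18 and 46 reads, so the size of its rise is uncertain. Its relative *Cbr1*, which reduces prostaglandin E2, changed by -1.45 and was called lower. *Tbxas1*, thromboxane synthase, rose by 0.73, a call that was lost with library totals (0.41, adjusted p = 0.109 from edgeR). *Ptges3*, the cytosolic prostaglandin E synthase and a chaperone partner, was the most abundant and fell from 109 ± 9.22 to 61.8 ± 2.06 CPM (log2 fold change -0.81), as did the aldose reductase *Akr1b3* (-1.57). *Ephx1*, an epoxide hydrolase and the one tested gene of the epoxide branch, had a log2 fold change of -2.83 (adjusted p = 1.34e-06 from edgeR). B cell, T cell and erythroid markers fell as well, with median log2 fold changes of -2.47, -2.50 and -2.96. The part of RNA from these cells in the falls of the 7 pathway genes called lower was not tested. The transporter *Slco3a1* rose by 0.89, and *Abcc4* did not pass.

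The receptors of the leukotriene and lipoxin branch that could be tested rose in 3 of 3 cases, against 26.5% called higher over all genes. *Ltb4r1*, the high-affinity leukotriene B4 receptor, went from 49.4 ± 5.10 to 148 ± 7.87 CPM (SD, n = 3 each; log2 fold change 1.59, adjusted p = 2.95e-06 from edgeR), and *Fpr2*, a receptor for formyl peptides and lipoxins from a gene family, from 46.8 ± 4.77 to 173 ± 16.7 CPM (log2 fold change 1.88). The other was *Cysltr2*, a cysteinyl leukotriene receptor, with 0.99, which did not pass with library totals (adjusted p = 0.118 from edgeR). With the neutrophil scaling *Fpr2* was at 0.10, *Ltb4r1* at -0.20 and *Cysltr2* at -0.81, and none of the 3 passed (adjusted p = 0.492, 0.167 and 0.0508 from edgeR). Among prostanoid receptors, 2 of 4 rose and 1 fell, against 26.5% higher and 27.2% lower over all genes. *Ptger2*, a prostaglandin E2 receptor, rose by 1.64 and *Ptgir*, the prostacyclin receptor, by 1.63. *Tbxa2r*, the thromboxane receptor, changed by -2.23 with a standard error of 0.683 and was called lower (adjusted p = 0.0187 from edgeR), and *Ptger4*, another prostaglandin E2 receptor and the most abundant of the 4, changed by -0.10 and did not pass (adjusted p = 0.559 from edgeR), although with library totals it was called lower (-0.42, adjusted p = 0.0302).

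**Figure D5:**
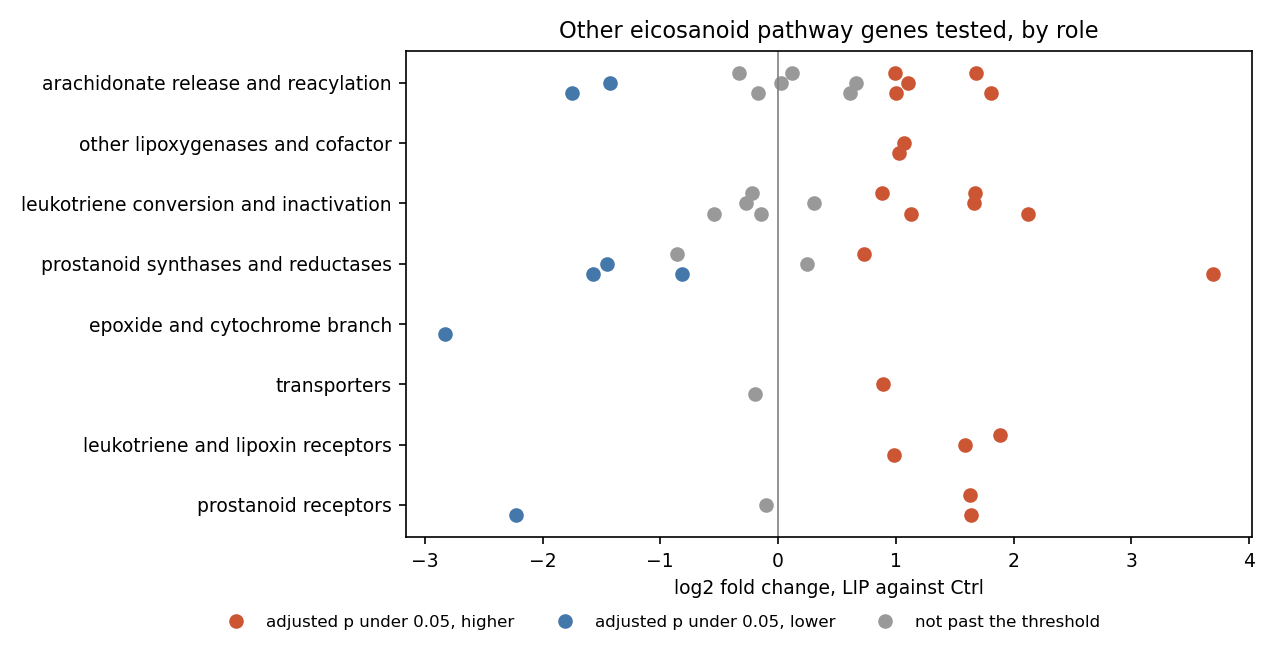
Log2 fold changes (LIP against Ctrl, edgeR with TMM) of the 42 other eicosanoid pathway genes tested, in 8 roles, coloured by call. Red points (20 genes) were called higher and blue points (7 genes) lower, with 3 of 3 leukotriene and lipoxin receptors higher and Ephx1 at -2.83. Over all genes tested, 26.5% were called higher and 27.2% lower.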

How the data were processed

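Smart-seq2 libraries of sorted PB neutrophils (3 Ctrl, 3 LIP, each a pool of 5 mice) were compared. Groups and replicate numbers come from the sample labels. The authors deposited unnormalized counts of reads for each gene and FPKM values, which the authors scaled by gene length and library total. The submitters' processing notes name cutadapt 1.9, FastQC and GRCm38, and the aligner, the counting tool and the use of strand are not given in the sources used here. The table lists 29097 genes, 50 names of which occur on several rows (the row of higher mean FPKM was used).

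Counts were tested with edgeR 4.0.16 (R 4.3.3; TMM factors, quasi-likelihood test, no replicate block) on the 10440 genes whose mean FPKM reached 1, with Benjamini-Hochberg adjustment. Standard errors were derived from the F statistic (log2 fold change over its square root). The alternatives were DESeq2 1.42.0, limma 3.58.1 on log2(FPKM + 1) and log2(FPKM + 0.1), other scalings and filters, a replicate block and leaving out each library. The test was tried on simulated counts with 200 changed genes. In the data 53.6% of the genes tested were called, so that trial does not bear on the dependence on scaling. Between libraries of a group, chi-square per gene was 51.9 to 126, which was computed to look for a library deposited more than once, and none was found. Counts have no molecular identifiers, so counting error understates the true error, and the common biological coefficient of variation was 0.265. Separate pools of mice are stated for the libraries, so the p-values measure the spread between pools.

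The members, lists and tests were chosen with earlier results of these data known. Genes of the pathway list were named as the most abundant and the most changed of each role, and markers as the most abundant of each list. *Cysltr2*, *Abcc4*, *Prg2*, *Il5ra*, *Itgam*, *Ly6g*, *Ltf*, *Ngp*, *Camp* and the antisense genes fall outside that rule and were named after their values were seen.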

Additional observations from a re-analysis of the deposited data

How the results depend on the processing

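*Alox5*, *Alox5ap*, *Ptgs2*, *Ptgs1* and *Hpgd* kept their direction and their call under all alternatives but the scaling on mature neutrophil genes. Under that scaling 0 members were higher and 5 lower, 1 pathway gene was higher and 31 lower, and 67 of all genes were higher and 9179 lower. *Ptgs1* had -0.60, *Hpgd* -0.72, *Pla2g4a* -0.83 and *Alox15* -1.69, each of opposite sign to the TMM value, by construction of a scaling that lowers every gene by the mean rise of the neutrophil genes. With library totals (median of all genes -0.42, 1919 genes higher and 4146 lower) 1 member was lower, as in limma with a pseudocount of 1 or 0.1, where 4271 genes in all were lower with a pseudocount of 1 and 11 pathway genes with 0.1. The sign of *Alox15* turned with library totals (-0.22), in limma (-0.15 and -0.26) and without the first or the second LIP library (-0.12 and -0.0019). With 1 library left out, 5 or 6 members were higher, the log2 fold change of *Alox15* ranged from -0.12 to 0.37, and the difference in the log2 *Alox5ap* to *Alox5* ratio from -0.18 to 0.05 (0.0470 without the second Ctrl library). The call of *Pla2g4a* was also lost in limma and without the filter (adjusted p = 0.087 from edgeR). The replicate numbers are shared by label only, between pools of different mice, and with a replicate block 6 members were higher, 19 pathway genes higher and 7 lower. Same-numbered libraries of the 2 groups had deviations that correlated at 0.0212, 0.0562 and 0.0364 across genes. *Ltc4s* and *Ptges* had 10 to 99 reads per library, and their wide standard errors allow no statement on a difference. Why the scalings differ was not tested.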
